A study of Danio rerio with 32 samples.

Results

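The genes that encode the subunits of the mitochondrial respiratory chain were described in whole zebrafish larvae at 7 dpf in which Keap1, Bach1 or Nrf2 had been disrupted. Members were chosen by name: every row of the count table whose gene ID maps to a symbol beginning with nduf, uqcr, cox4 to cox8 or atp5, or to sdha, sdhb, sdhc or sdhd, together with the protein-coding genes of mitochondrial DNA. This gave 102 rows of the 16825 in the table. There were 89 nuclear rows, of which 76 encode subunits (29 of complex I, 3 of complex II, 6 of complex III, 20 of complex IV and 18 of complex V), 12 encode assembly factors and 1, atp5if1a, encodes the inhibitor of the ATP synthase. The other 13 rows are the genes of mitochondrial DNA, 7 for complex I, 1 for complex III, 3 for complex IV and 2 for complex V. A further 20 of the 122 reference genes that fit the rule, among them ndufs1, sdhc and uqcrc1, had no row and were not analysed here.

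The respiratory chain sits in the inner mitochondrial membrane. Complexes I and II pass electrons from NADH and succinate to ubiquinone, complex III hands them to cytochrome c, and complex IV gives them to oxygen. Complexes I, III and IV pump protons, and complex V, the ATP synthase, uses the resulting gradient to make ATP. All complexes except complex II contain subunits from both genomes, so the chain is assembled from proteins made in the cytosol and proteins made inside the organelle. It is abundant in tissues with a high demand for ATP, such as muscle and heart.

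RNA came from 8 groups of 4 pools, with 10 larvae in a pool. The Bach1 DKO line carries mutations in both bach1a and bach1b, which encode a repressor that competes with Nrf2 for its DNA sites. The Nrf2 KO line carries a mutated nfe2l2a, the gene for Nrf2, the activator of antioxidant genes. Larvae of either line were studied with injection of CRISPR/Cas9 against keap1a and keap1b (named Bach1 DKO crkeap1a/b, or Nrf2 KO crkeap1a/b) and without it (Bach1 DKO, or Nrf2 KO). The remaining groups were crkeap1a/b, crkeap1a and crkeap1b larvae, injected against both or either of the Keap1 genes, and WT larvae. Keap1 marks Nrf2 for degradation. Injected larvae are mosaic, so their tissues hold a mixture of edited and unedited cells. The labels name no batch, so that genotype, line and handling cannot be told apart between a mutant line and WT. A pool is a sample of whole larvae, and fewer cells of a type cannot be told apart from less RNA per cell.

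Total counts per pool ran from 3464165 to 4712448, of which 1976901 to 2804487 fell in rows with a gene ID, and only those rows were scaled and tested. Values are CPM, counts scaled to a fixed library total by TMM, a factor that aligns the bulk of genes between libraries. The 3 counts taken as the floor of detection equal 1.07 to 1.52 CPM, a limit that covers counting error only. A gene was called changed when limma-voom gave an adjusted p under 0.05 over all 14108 rows tested, and 99 members passed the filter on low counts: 75 nuclear subunits, 13 mitochondrial genes and 11 factors. The members ndufa13, ndufaf7 and ndufaf8 failed it. Over the other 14009 tested rows, 5 pools stood apart: crkeap1a pools 2 and 3 and crkeap1b pools 1, 3 and 4 lay at 44.8 to 67.7 on the first principal component, against at most 21.3 in every other pool. Results that use these groups are given with and without these 5 pools. The targeted genes gave a mixed picture. In Bach1 DKO pools bach1a ran from 5.68 to 8.41 CPM, against 9.63 to 14.7 CPM in WT pools, and bach1b from 35.9 to 52.1 CPM, against 17.7 to 30.1 CPM. For nfe2l2a, Nrf2 KO pools held 283 to 340 CPM, against 387 to 511 CPM in WT pools, but all other groups were below WT as well. For keap1a, crkeap1a pools held 15.8 to 25.5 CPM, against 14.5 to 19.3 CPM in WT pools, and for keap1b, crkeap1b pools held 17.9 to 34.4 CPM, against 29.4 to 36.7 CPM. Some targeted genes were well above WT in injected larvae: keap1a at 110 to 138 CPM in Bach1 DKO crkeap1a/b and 35.7 to 51.7 CPM in crkeap1a/b pools, bach1b at 244 to 268 CPM in Bach1 DKO crkeap1a/b pools, and keap1b at 52.99 to 127 CPM in crkeap1a pools. Counts of 3′ ends need not fall when a coding sequence is mutated, so they do not check the genotypes.

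In WT larvae the mitochondrial genes were the more abundant class. Their median was 1599 CPM, between 22.8 CPM for ND6 and 7569 CPM for COX3, and they summed to 30672 CPM. The 76 nuclear subunit genes had a median of 119 CPM and summed to 12043 CPM. Their most abundant member was atp5f1b, the catalytic beta subunit of the ATP synthase, at 1664 CPM, and the least abundant was atp5meb at 0.548 CPM, below the floor. The factors and the inhibitor had a median of 8.78 CPM. Because each read marks a transcript end, these levels can be set side by side without a correction for length, but 3′ counts of mitochondrial transcripts depend on how much of each RNA is polyadenylated or primed internally. ATP8 and ATP6 share a transcript and overlap, as do ND4L and ND4, and ND6 lies opposite ND5. How reads were divided among these genes is not given in the sources used here.

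The classes were ordered differently over the 8 groups. The mean log2 CPM of the 13 mitochondrial genes was higher in 27 of the 28 pools outside WT than in the highest WT pool, whereas that of the 76 nuclear subunit genes was higher in 18 of 28. Both counts rest on TMM scaling, whose factors for the single crispant pools are given below. For the mitochondrial genes the group means were 10.50 ± 0.082 in Bach1 DKO crkeap1a/b larvae, 10.15 ± 0.106 in Bach1 DKO larvae, 10.46 ± 0.064 in Nrf2 KO crkeap1a/b larvae and 10.14 ± 0.033 in Nrf2 KO larvae, against 9.79 ± 0.092 in WT larvae (SD, n = 4 each). They were 10.10 ± 0.078 in crkeap1a/b, 10.00 ± 0.070 in crkeap1a and 10.37 ± 0.347 in crkeap1b larvae (SD, n = 4 each). Thus the edited groups of the 2 mutant lines stood at the top, and both unedited lines stood near the crkeap1a/b larvae. In the Bach1 DKO line this mean includes ATP8, described below, which was far above WT with and without editing. For the nuclear subunit genes the means were 6.56 ± 0.058, 6.23 ± 0.074, 6.68 ± 0.084, 6.33 ± 0.040, 6.39 ± 0.159, 6.85 ± 0.366 and 7.09 ± 0.536 in the same 7 groups in the same order, against 6.28 ± 0.082 in WT larvae (SD, n = 4 each). Here the single crispants were the highest groups and the most spread, and the unedited Bach1 DKO line was the lowest. In the Bach1 DKO line the nuclear mean includes the low-count genes ndufs7 and ndufab1a, described below, which were far above WT. No p is given for these means, since the genes were chosen with results of these data known.

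**Figure D1:**
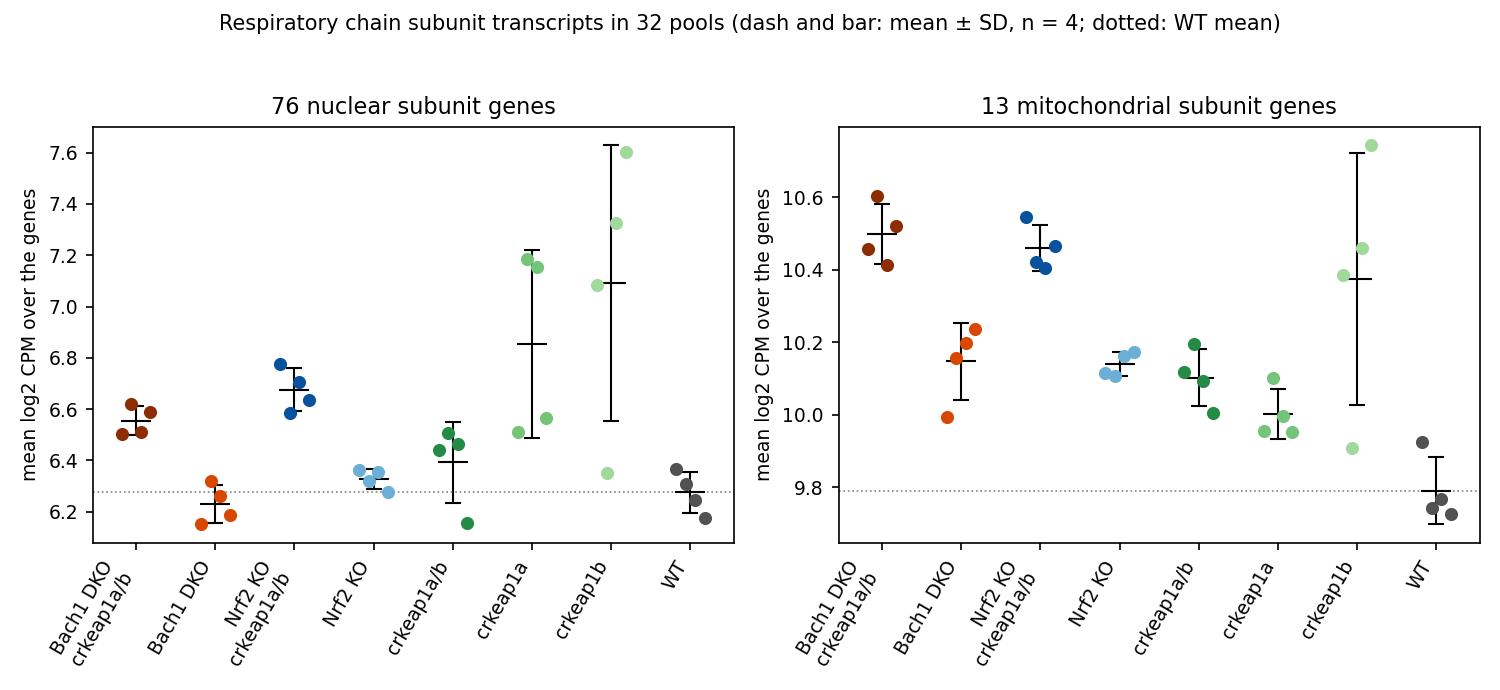
Mean log2 CPM over the 76 nuclear subunit genes and the 13 mitochondrial genes in each of the 32 pools, by group. Points are pools, the dash and bar are the mean ± SD of 4 pools, and the dotted line is the WT mean. For the mitochondrial genes all 4 pools of every group other than WT and crkeap1b lie above the WT pools. The nuclear mean is highest and most scattered in crkeap1a and crkeap1b.

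Relative to WT, the nuclear mean minus the mitochondrial mean was lower by 0.43 in Bach1 DKO crkeap1a/b and by 0.40 in Bach1 DKO larvae on the log2 scale. The same difference was -0.27 in Nrf2 KO crkeap1a/b, -0.30 in Nrf2 KO and -0.19 in crkeap1a/b larvae. It was positive in the single crispants, at 0.37 in crkeap1a and 0.23 in crkeap1b larvae. In unedited Bach1 DKO larvae the mitochondrial mean, 0.36 above WT, was raised by ATP8 and ND5, described below. The limma median over the 13 mitochondrial genes for Bach1 DKO against WT was 0.05 without the 5 single crispant pools. How far the Bach1 DKO differences would shrink without ATP8, or change without the low-count nuclear genes ndufs7 and ndufab1a, was not tested. As a share of the counts in rows with a gene ID, which needs no TMM factor, the mitochondrial genes took 4.81% to 5.29% in Bach1 DKO crkeap1a/b pools, 3.53% to 4.03% in Bach1 DKO pools, 5.001% to 5.20% in Nrf2 KO crkeap1a/b pools and 3.92% to 4.28% in Nrf2 KO pools, against 2.92% to 3.41% in WT pools. These ranges did not overlap that of WT, nor did the 3.64% to 4.13% of the crkeap1a/b pools. In crkeap1a pools the share was 2.81% to 3.60% and in crkeap1b pools 3.28% to 3.73%, and both overlapped that of WT, although the mean log2 CPM of both groups was above WT. The TMM factors were 0.82 and 0.72 in crkeap1a pools 2 and 3. In crkeap1b pools 1, 3 and 4 they were 0.80, 0.71 and 0.62. They were 0.98 to 1.02 in the other single crispant pools and 0.98 to 1.08 in WT pools. A lower factor gives a higher CPM for the same counts. The part of the scaling in these means was not tested. The nuclear subunit genes took 1.46% to 1.57% of counts in Bach1 DKO crkeap1a/b, 1.44% to 1.52% in Nrf2 KO crkeap1a/b and 1.46% to 1.90% in crkeap1a pools, against 1.18% to 1.31% in WT pools, with no overlap. The nuclear shares of Bach1 DKO, Nrf2 KO, crkeap1a/b and crkeap1b pools overlapped that of WT. The base of these shares leaves out rows without a gene ID. Those rows held 36.6% to 39.5% of all counts in WT pools and 30.6% to 41.4% in crkeap1a pools. They held 43.4% to 44.8% in Bach1 DKO crkeap1a/b, 45.1% to 45.7% in Nrf2 KO crkeap1a/b and 44.4% to 46.8% in Nrf2 KO pools. In Bach1 DKO pools and in crkeap1a/b pools they held 40.1% to 42.6%. For all these groups the gaps to WT can be narrower over all counts, and ranges that lie apart here can overlap. Shares of all counts were not computed, so the lack of overlap is stated for this base only.

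**Figure D2:**
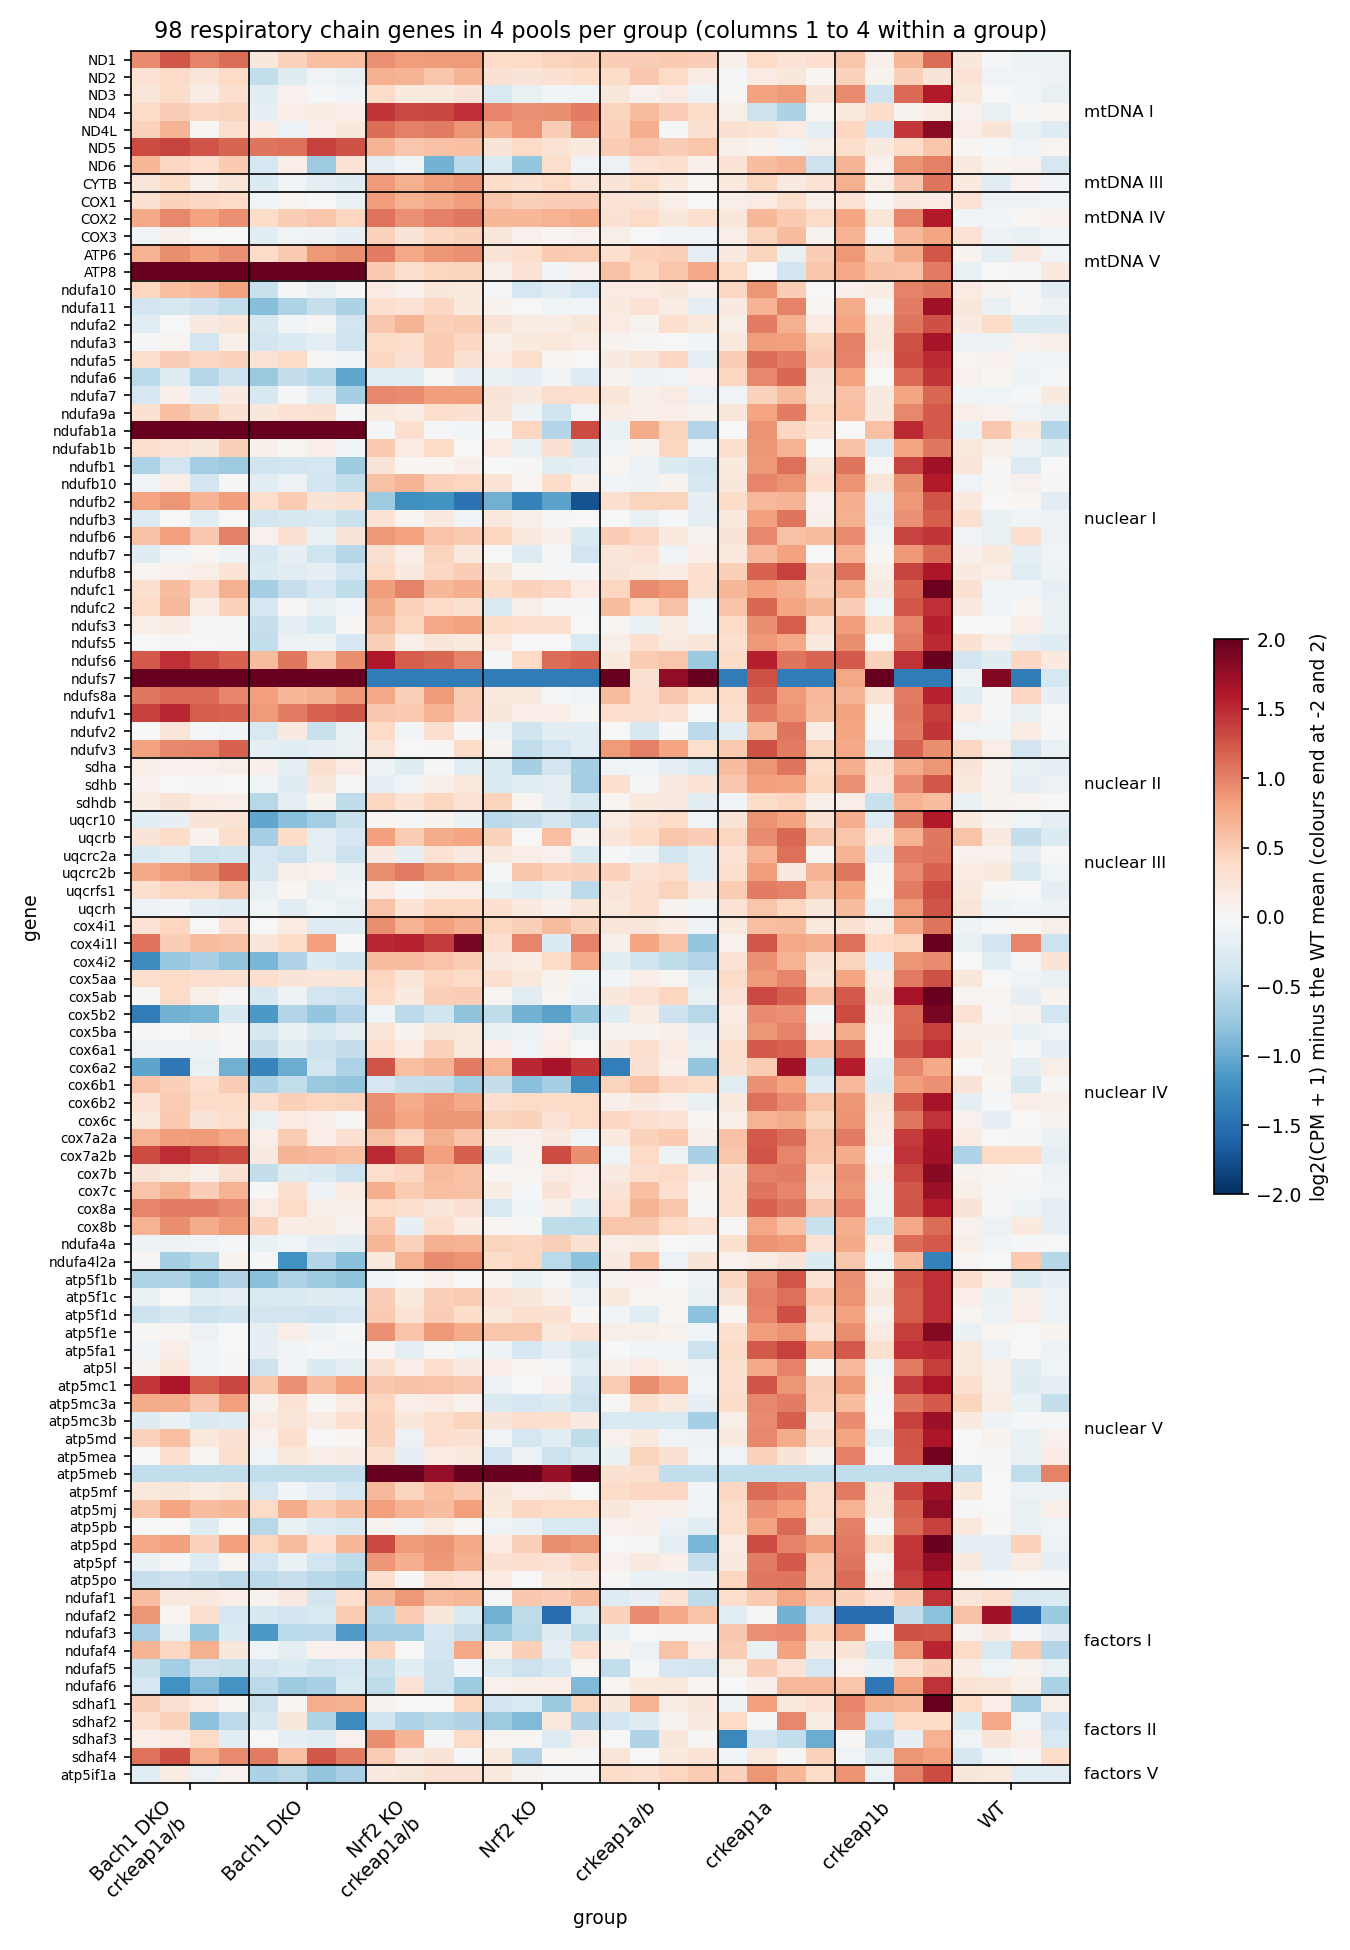
Levels of 98 tested members (rows, grouped by genome and complex) in the 32 pools (columns, by group), coloured by log2(CPM + 1) minus the WT mean, with colours ending at -2 and 2. Nuclear subunits are high in crkeap1a pools 2 and 3 and crkeap1b pools 1, 3 and 4, and a few rows such as ATP8, ndufs7 and ndufb2 differ in all pools of a mutant line.

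With all pools in the fit, most nuclear subunit genes had higher CPM in crkeap1a than in WT larvae. Without the 5 pools that stood apart 9 nuclear subunits were called, as described below. In crkeap1a against WT larvae, 50 members were called, all higher, where 13.4% of all rows were called and 6.51% were called higher. These were 47 of 75 nuclear subunits (median log2 fold change 0.62, against 0.01 over all rows), 1 of 13 mitochondrial genes (median 0.24) and 2 factors. They spread over all complexes, with 17 of 28 genes of complex I, 2 of 3 of complex II, 2 of 6 of complex III, 12 of 20 of complex IV and 14 of 18 of complex V. In crkeap1b larvae 77 members were called, all higher, where 18.2% of all rows were called and 9.58% were called higher: 63 nuclear subunits (median 0.87), 10 mitochondrial genes (median 0.62) and 4 factors. By complex these were 25 of 28, 2 of 3, 5 of 6, 14 of 20 and 17 of 18 nuclear genes. Both comparisons use the same WT pools, as do those of crkeap1a/b, Bach1 DKO and Nrf2 KO larvae with WT that follow.

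The pools behind these counts were not alike. For atp5fa1, the alpha subunit of the ATP synthase, crkeap1a pools held 532, 974, 1067 and 684 CPM, against 479, 381, 415 and 387 CPM in WT pools (log2 fold change 0.92 ± 0.18 SE, limma adjusted p = 0.00135). Every crkeap1a pool was above every WT pool, and pools 2 and 3, which stood apart, were the highest. For cox5ab, a structural subunit of cytochrome c oxidase (complex IV), crkeap1b pools held 286, 143, 381 and 530 CPM, against 126, 125, 108 and 127 CPM in WT pools (1.32 ± 0.22, adjusted p = 0.000151). Pool 2, the only crkeap1b pool that did not stand apart, lay near the WT pools. In complex II, sdha, the flavoprotein that oxidises succinate, had 396, 480, 544 and 336 CPM in crkeap1a pools, against 309, 272, 236 and 228 CPM in WT pools (0.74 ± 0.14, adjusted p = 0.00113). Its partner sdhb, the iron-sulphur subunit, was higher by 0.65 in crkeap1a and by 0.83 in crkeap1b larvae (adjusted p = 0.00601 and 0.00042), and sdhdb, a membrane anchor, was not called in either (0.22 in both). Among the mitochondrial genes COX2 was the 1 called in crkeap1a (0.45, adjusted p = 0.0461). In crkeap1b COX1, ND4 and ND2 were the 3 not called.

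Without the 5 pools, 10 members were called in crkeap1a against WT (9 nuclear subunits and 1 mitochondrial gene), all higher, where 2.06% of 15357 rows were called, and the median over the 101 members then tested was 0.29. In crkeap1b against WT, limma called 0 of 101, where 0.436% of rows were called, with 11 under an unadjusted p of 0.05. That comparison then rests on 1 crkeap1b pool, whose spread is assumed to equal that of the other groups. The mean of the nuclear genes fell in size to 0.26 above WT in crkeap1a and 0.08 in crkeap1b, against 0.58 and 0.82 with all pools. Marker genes moved in the same 5 pools. Relative to the WT mean, their mean log2 CPM was higher by 0.99 to 1.53 for skeletal muscle (15 of 20 markers found), by 0.59 to 1.78 for exocrine pancreas (10 of 12), by 0.59 to 1.12 for liver (11 of 12) and by 0.69 to 1.66 for erythroid cells (4 of 8). Neuronal markers (12 of 12) were lower by 0.20 to 0.56. Genes of cytosolic ribosomal proteins (71 genes) were higher by 0.58 to 1.15 in these pools. The summed muscle markers were 59786 to 107866 CPM in crkeap1a and 62176 to 147469 CPM in crkeap1b pools, against 38700 to 46868 CPM in WT pools. Their part in the higher nuclear subunit counts was not tested.

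In crkeap1a/b larvae, in which both Keap1 genes were edited, few members were called and the mitochondrial genes led. With all pools in the fit, the share of members called in either direction was near that of all rows. There were 6 called, all higher, where 5.32% of all rows were called and 3.57% were called higher: ND1, ND4, ND5 and ATP8 of mitochondrial DNA, and the nuclear genes ndufv3 and ndufs7. All 13 mitochondrial genes had a positive log2 fold change (median 0.31), while the median over the 75 nuclear subunits was 0.12. ND5, a proton-pumping subunit of complex I, had 360, 376, 359 and 373 CPM in crkeap1a/b pools, against 262, 249, 241 and 264 CPM in WT pools (0.53 ± 0.10, adjusted p = 0.000421). ND4, another membrane subunit of complex I, had 2175, 2466, 2246 and 2076 CPM in crkeap1a/b pools, against 1696, 1444, 1619 and 1638 CPM in WT pools (0.49 ± 0.13, adjusted p = 0.0155). For both genes the lowest edited pool was above the highest WT pool.

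ND1, which lies next to the quinone site of complex I, had 1165, 1169, 1193 and 1168 CPM in crkeap1a/b pools, against 969, 818, 776 and 769 CPM in WT pools (0.50 ± 0.14, adjusted p = 0.02). For ndufv3, an accessory subunit of the NADH-oxidising module, crkeap1a/b pools held 87.7, 96.9, 83.7 and 61.6 CPM, against 63.9, 52.4, 36.4 and 43.2 CPM in WT pools (0.76 ± 0.21, adjusted p = 0.02), and pool 4 fell within the WT range. COX3, the most abundant of the mitochondrial genes, did not share in this (0.01, adjusted p = 0.99). Without the 5 single crispant pools 21 of the 101 members tested were called higher and 1 lower in the same comparison. Of these, 7 were mitochondrial genes. There 10.4% of rows were called, so the share of members was above that of all rows. Muscle markers were lower than the WT mean by 0.24 to 0.48 in the crkeap1a/b pools, and their part in these values was not tested.

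The same editing was next compared within the Bach1 DKO line. In Bach1 DKO crkeap1a/b against Bach1 DKO larvae, 23 members were called, all higher, where 24.9% of all rows were called and 14.3% were called higher. These were 16 of 75 nuclear subunits (median 0.28, with 66 of 75 positive), 6 of 13 mitochondrial genes (median 0.38, with 13 of 13 positive) and the inhibitor atp5if1a, and the median over all rows was -0.03. With all pools the share called was thus near the background, and the direction was the same for every call. Complex III had 3 of 6 nuclear genes called, complex IV 6 of 20, complex I 5 of 28, complex V 2 of 18 and complex II 0 of 3. For complex II limma gave no call for sdha, sdhb and sdhdb, whose log2 fold changes were 0.00, 0.04 and 0.48. No pools of the single crispants enter this comparison, except through the shared estimate of spread. Without the 5 pools 38 members were called higher and 1 lower, where 31.5% of rows were called.

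The gene with the largest of these differences, ndufv3, belongs to complex I, and cox6b1 of complex IV, given below, was close to it. For ndufv3, edited Bach1 DKO pools held 84.4, 94.7, 95.6 and 110 CPM, against 41.9, 40.8, 41.7 and 43.2 CPM in Bach1 DKO pools (1.19 ± 0.21, adjusted p = 5.96e-05). The lowest edited pool was well above the highest unedited pool. The accessory subunits ndufc1 (1.03), ndufa10 (0.77) and ndufb6 (0.62) were among the others called. Of the mitochondrial genes of complex I, ND1 had 1606, 1955, 1655 and 1808 CPM in edited pools, against 971, 1140, 1265 and 1257 CPM in Bach1 DKO pools (0.60 ± 0.14, adjusted p = 0.00107). ND2 (0.57, adjusted p = 0.000419), ND6 (0.67) and ND4 (0.38) were called as well. ND6 is the 1 gene among them encoded on the opposite strand, and it was low throughout, at 28.7 to 36.5 CPM in the edited pools.

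In complex III, uqcrc2b, a core subunit, had 54.4, 58.2, 61.4 and 71.5 CPM in Bach1 DKO crkeap1a/b pools, against 25.3, 34.8, 33.7 and 28.7 CPM in Bach1 DKO pools (0.99 ± 0.20, adjusted p = 0.00023). The small subunit uqcr10 had 106, 111, 148 and 150 CPM, against 60.3, 69.3, 77.6 and 90.9 CPM in Bach1 DKO pools (0.79). In both cases the groups were apart. The Rieske iron-sulphur protein uqcrfs1 was higher by 0.53, and CYTB, the cytochrome b of the mitochondrial genome, by 0.44 ± 0.13 (adjusted p = 0.0148). All of these differences have the same sign in the nuclear and the mitochondrial genes of the complex.

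In complex IV, cox6b1, a subunit that joins the monomers of the enzyme, had 84.4, 79.2, 72.4 and 80.2 CPM in edited pools, against 36.3, 40.0, 33.3 and 32.2 CPM in Bach1 DKO pools (1.15 ± 0.23, adjusted p = 0.000214). The other called nuclear genes of complex IV were cox7a2b (0.87), cox8a (0.80), cox8b (0.60), cox7b (0.58) and cox7a2a (0.52), all small accessory subunits. COX1, which holds the site of oxygen reduction, was higher by 0.44 (adjusted p = 0.00326). In complex V the called genes were atp5mc1 (0.67) and atp5mc3a (0.58), a pair of copies of the c subunit of the rotating ring. The more abundant copy atp5mc3b had 629, 683, 610 and 625 CPM in edited pools, against 834, 880, 830 and 942 CPM in Bach1 DKO pools (-0.45, adjusted p = 0.114). Every edited pool was lower for this copy, so the copies differed in direction, though atp5mc3b was not called. The inhibitor atp5if1a had 125, 162, 135 and 155 CPM in edited pools, against 93.9, 98.9, 83.8 and 93.1 CPM in Bach1 DKO pools (0.63, adjusted p = 0.008). Over the same pools muscle markers were lower in the edited larvae, by 0.56 to 0.95 below the WT mean, against 0.00 to 0.43 above it in Bach1 DKO pools, with 11 of 14 tested markers called lower and 2 higher. Their part in the values of the respiratory chain genes was not tested.

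In the Nrf2 KO line the same editing gave 0 calls by limma, where 0.865% of all rows were called. The median was 0.36 over the nuclear subunits, with 71 of 75 positive, and 0.33 over the mitochondrial genes, with 12 of 13 positive, against 0.00 over all rows. At an unadjusted p under 0.05 there were 40 members, 30 of them nuclear subunits and 9 mitochondrial. By edgeR 0 members were called and by DESeq2 5. In 50 of the 99 members every edited pool was above every unedited pool, and in 0 it was below, where 5.95% and 5.87% of all rows were so arranged. Without the 5 single crispant pools, none of which belongs to this line, 35 members were called, all higher (25 nuclear subunits and 10 mitochondrial genes), where 3.89% of rows were called. The count therefore depends on whether those pools enter the fit, which shares its estimate of spread over all groups.

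The values of single genes show the same arrangement. CYTB had 6705, 6105, 6617 and 6904 CPM in Nrf2 KO crkeap1a/b pools, against 4786, 4604, 4881 and 4421 CPM in Nrf2 KO pools (0.49, adjusted p = 0.0714). ND4 had 4306, 4007, 4038 and 4382 CPM, against 3138, 3017, 3047 and 3251 CPM in Nrf2 KO pools (0.43, adjusted p = 0.111). For ndufa7, an accessory subunit of complex I, edited pools held 64.9, 64.3, 59.7 and 59.21 CPM, against 39.5, 37.2, 42.1 and 41.8 CPM in Nrf2 KO pools (0.62, adjusted p = 0.0587). In each of these genes the groups did not overlap, and with all pools in the fit the adjusted p missed the threshold. Without the single crispant pools that stood apart, limma called each of them higher. The values were then 0.49 for CYTB (adjusted p = 1.8e-05), 0.42 for ND4 (adjusted p = 2.8e-05) and 0.62 for ndufa7 (adjusted p = 0.0042).

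The 3 editing comparisons use different pools throughout. Their log2 fold changes were all positive for 51 of 75 nuclear subunits and for 12 of 13 mitochondrial genes. The share of all rows that were positive in all 3 is not given here, so these counts lack a background. ND1, for instance, differed by 0.60 in the Bach1 DKO line, by 0.44 in the Nrf2 KO line and by 0.50 in the WT background, and ndufv3 by 1.19, 0.42 and 0.76 in the same order. Whether the effect of editing depends on the line was tested by interaction terms. For the Bach1 background 0 members were called by limma, where 2.84% of all rows were called, with 7 under an unadjusted p of 0.05, 0 by edgeR and 1 by DESeq2. For the Nrf2 background 0 members were called, where 1.18% of all rows were called, with 3 under an unadjusted p of 0.05 and 0 by edgeR and by DESeq2. These counts do not show that the backgrounds act alike, and they depend on which pools enter the fit. Without the 5 pools the interaction counts were 4 higher and 2 lower for Bach1, where 7.46% of rows were called, and 1 higher for Nrf2, where 3.45% were.

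**Figure D3:**
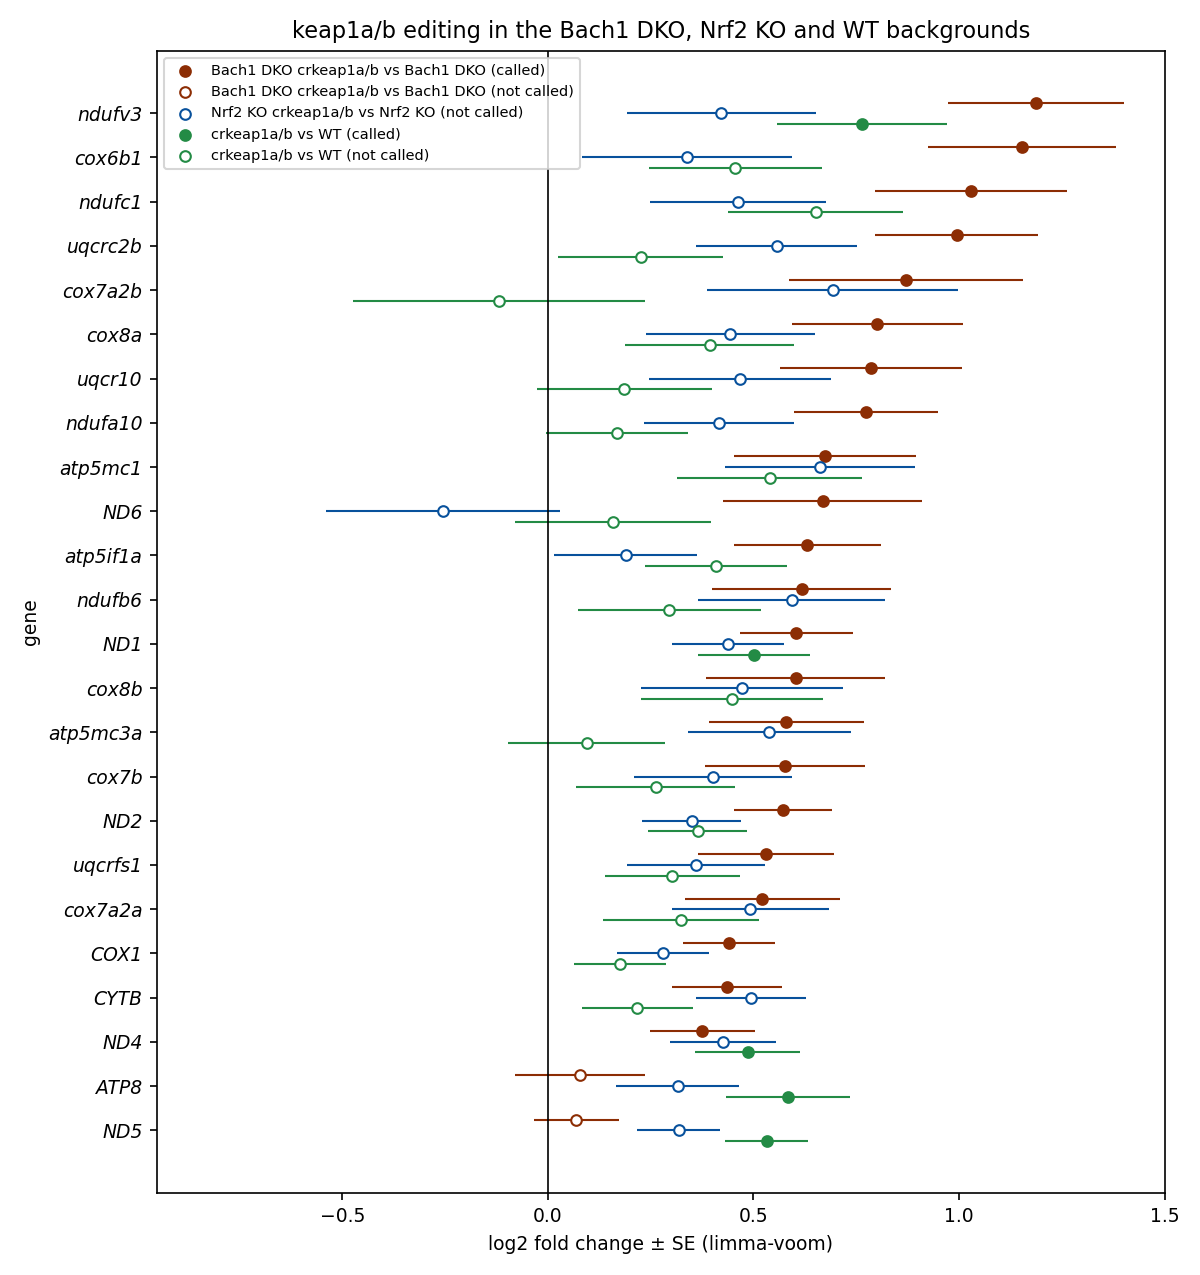
Log2 fold change ± SE for editing of keap1a and keap1b in 3 backgrounds, for 24 of the members called in the Bach1 DKO line or in the WT background (ndufs7 is left out, since it had 0 counts in the Nrf2 KO line). Filled symbols mark an adjusted p under 0.05. Most values lie to the right of 0 in all 3 backgrounds, and no value of the Nrf2 KO line is filled.

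The interaction of keap1a with keap1b editing compares crkeap1a/b larvae with the sum of the differences seen in the single crispants. It was called for 79 members, 77 of them lower and 2 higher, where 38.3% of all rows were called. Among nuclear subunits 67 of 75 were called, all lower, with a median of -1.34, so that larvae with both genes edited lay below what the single crispants would add up to. For mitochondrial genes 5 were called lower and 1 higher. These counts rest on the 5 pools: without them 1 member was called higher and 4 lower, where 4.09% of rows were called. All of these were nuclear subunits, and 0 mitochondrial genes were called.

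Unedited Bach1 DKO larvae differed from WT in members that were higher and members that were lower. With all pools 13 were called higher and 9 lower, where 23.4% of all rows were called. In that fit the share called was near that of the background. Without the 5 single crispant pools, none of which is in this comparison, 19 of the 101 members tested were called higher and 29 lower. There 29.2% of rows were called, so the share of members was above that of all rows. Among nuclear subunits this fit gave 13 higher and 25 lower, and among mitochondrial genes 5 higher and 2 lower. Both the share and the balance of calls thus depend on those pools. With all pools the nuclear subunits had 7 called higher and 7 lower (median -0.16), and 5 mitochondrial genes were called, all higher (median 0.06). ATP8, a small subunit of the membrane part of the ATP synthase, was the outstanding gene. It had 1224, 1612, 1345 and 1455 CPM in Bach1 DKO crkeap1a/b pools and 1115, 1155, 1587 and 1520 CPM in Bach1 DKO pools, against 209, 229, 228 and 264 CPM in WT pools (Bach1 DKO against WT 2.52 ± 0.15, adjusted p = 2.05e-14). Over the other groups its highest pool was 475.9 CPM, in crkeap1b. ATP8 counts divided by those of its overlapping neighbour ATP6 were 0.340 to 0.380 in edited and 0.358 to 0.391 in unedited Bach1 DKO pools, against 0.0891 to 0.123 in WT pools and at most 0.200 in any pool outside the line. How much of this is the count and how much the division of reads between the overlapping genes was not tested.

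ATP6, which forms part of the proton channel, was also called in Bach1 DKO larvae, with 2928, 3215, 4056 and 4242 CPM, against 2343, 1964, 2524 and 2145 CPM in WT pools (0.68 ± 0.16, adjusted p = 0.00181). ND5 had 533, 543, 657 and 613 CPM in Bach1 DKO pools, against 262, 249, 241 and 264 CPM in WT pools (1.20 ± 0.10, adjusted p = 5.36e-11). ND1 (0.47, adjusted p = 0.0101) and COX2 (0.46, adjusted p = 0.0269) were called higher, while COX3 (-0.14) and ND2 (-0.24) were not called. The mitochondrial genes therefore did not move as 1 block in this line.

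Of the nuclear genes, ndufv1, the subunit that binds NADH, had 156, 178, 197 and 205 CPM in Bach1 DKO pools, against 96.6, 85.2, 77.8 and 86.1 CPM in WT pools (1.08 ± 0.17, adjusted p = 1.9e-05). The low-count gene ndufab1a, a copy of the mitochondrial acyl carrier protein, had 5.24, 8.01, 7.10 and 6.18 CPM, against 0.367, 1.17, 0.713 and 0 CPM in WT pools, where it lay at or under the floor (3.54 ± 0.66, adjusted p = 0.000156). The complex II assembly factor sdhaf4 (1.02), the iron-sulphur subunit ndufs8a (0.77), ndufs6 (0.81), atp5mc1 (0.73) and atp5mj (0.57) were called higher. On the other side, atp5f1b had 920, 1069, 997 and 935 CPM in Bach1 DKO pools, against 2057, 1802, 1357 and 1439 CPM in WT pools (-0.75 ± 0.19, adjusted p = 0.00341), with no overlap. Lower calls were also made for ndufaf3 (-0.85), uqcr10 (-0.75), ndufa6 (-0.71), cox6b1 (-0.67), atp5if1a (-0.66), ndufa11 (-0.64), cox4i2 (-0.56) and atp5po (-0.54). Of these, uqcr10, cox6b1 and atp5if1a were the genes that editing raised within the line. Both statements use the same Bach1 DKO pools, so they are not independent of each other.

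In unedited Nrf2 KO larvae 9 members were called higher and 3 lower than in WT, where 16.0% of all rows were called. Leaving out the 5 single crispant pools gave 22 higher and 7 lower, where 21.8% of rows were called. With all pools the nuclear subunits had 3 higher and 3 lower (median 0.08) and the mitochondrial genes 6 higher and 0 lower (median 0.33). ND4 had 3138, 3017, 3047 and 3251 CPM in Nrf2 KO pools, against 1696, 1444, 1619 and 1638 CPM in WT pools (0.96 ± 0.13, adjusted p = 1.08e-06). COX1 had 9178, 8721, 8759 and 8780 CPM, against 7613, 5798, 5804 and 5959 CPM in WT pools (0.50 ± 0.11, adjusted p = 0.00161). COX2, which accepts electrons from cytochrome c, had 7869, 7847, 8026 and 8295 CPM, against 4717, 4769, 5110 and 5297 CPM in WT pools (0.69 ± 0.15, adjusted p = 0.00164). In all 3 genes the groups were apart, and for ND4 and COX2 the gap between them was wider than the range within either group. ND4L (0.77, adjusted p = 0.0376), ND1 (0.42, adjusted p = 0.0279) and ND5 (0.29, adjusted p = 0.0437) were the other mitochondrial calls.

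Nuclear calls in the Nrf2 KO line included ndufb2, a small membrane-arm subunit of complex I, with 65.5, 49.95, 60.6 and 37.7 CPM, against 148, 128, 132 and 110 CPM in WT pools (-1.30 ± 0.21, adjusted p = 3.12e-05). In complex II, sdha had 211, 163, 201 and 163 CPM in Nrf2 KO pools, against 309, 272, 236 and 228 CPM in WT pools (-0.50 ± 0.14, adjusted p = 0.0117). The groups were apart in both genes. In complex IV, cox6b1 was lower (-0.83 ± 0.24, adjusted p = 0.0152) and 2 isoform genes were higher. The gene cox6a2, the muscle-type isoform in mammals, had 4.81, 9.17, 10.18 and 8.63 CPM, against 2.57, 2.73, 2.14 and 2.88 CPM in WT pools (1.57 ± 0.45, adjusted p = 0.0141). The gene cox4i1, the common isoform in mammals, had 351, 364, 403 and 364 CPM, against 242, 252, 268 and 281 CPM in WT pools (0.51 ± 0.15, adjusted p = 0.0159). Muscle markers were higher than the WT mean by 0.39 to 0.64 over the 8 pools of the Nrf2 KO line, and their part in the value for cox6a2 was not tested.

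A pair of nuclear genes with few counts differed between lines. For ndufs7, an iron-sulphur subunit of complex I, all 8 pools of the Nrf2 KO line had 0 counts. Pools held 16.8, 22.3, 26.5 and 19.6 CPM in Bach1 DKO crkeap1a/b, 19.7, 18.4, 17.3 and 10.1 CPM in Bach1 DKO, 15.2, 2.26, 8.09 and 12.98 CPM in crkeap1a/b, 0, 5.404, 0 and 0 CPM in crkeap1a, 3.52, 12.5, 0 and 0 CPM in crkeap1b, and 1.47, 8.60, 0 and 1.08 CPM in WT larvae. A count of 0 was thus also found in 5 of the 8 single crispant pools and in 1 WT pool. WT pools spread from 0 to 8.60 CPM, and 3 of the 4 lay near or under the floor. The gene was called in Bach1 DKO against WT (3.64 ± 0.79, adjusted p = 0.00088) and in crkeap1a/b against WT (2.64 ± 0.81, adjusted p = 0.0483). For pools at 0 these fitted values depend on the small constant that limma-voom adds to each count. The floor of 3 counts on the TMM scale, averaged over the Nrf2 KO crkeap1a/b pools, was 1.38 CPM. Against it the mean of crkeap1a/b larvae, 9.64 ± 5.76 CPM (SD, n = 4), was at least 7.01-fold higher. That fold holds for the mean only, since crkeap1a/b pool 2, at 2.26 CPM, lay much nearer the floor. No fold is given for Nrf2 KO against WT larvae, since only WT pool 2 lay clearly above the floor. For atp5meb, a copy of the e subunit of the ATP synthase, Nrf2 KO pools held 5.30, 4.59, 3.70 and 5.90 CPM, against 0, 0.391, 0 and 1.80 CPM in WT pools (3.52 ± 0.61, adjusted p = 8.09e-05). It had 0 counts in all pools of the Bach1 DKO line and of the single crispants. Both genes have few counts. Within the mutant lines limma called neither on editing, whereas ndufs7 was called on editing in the WT background.

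**Figure D4:**
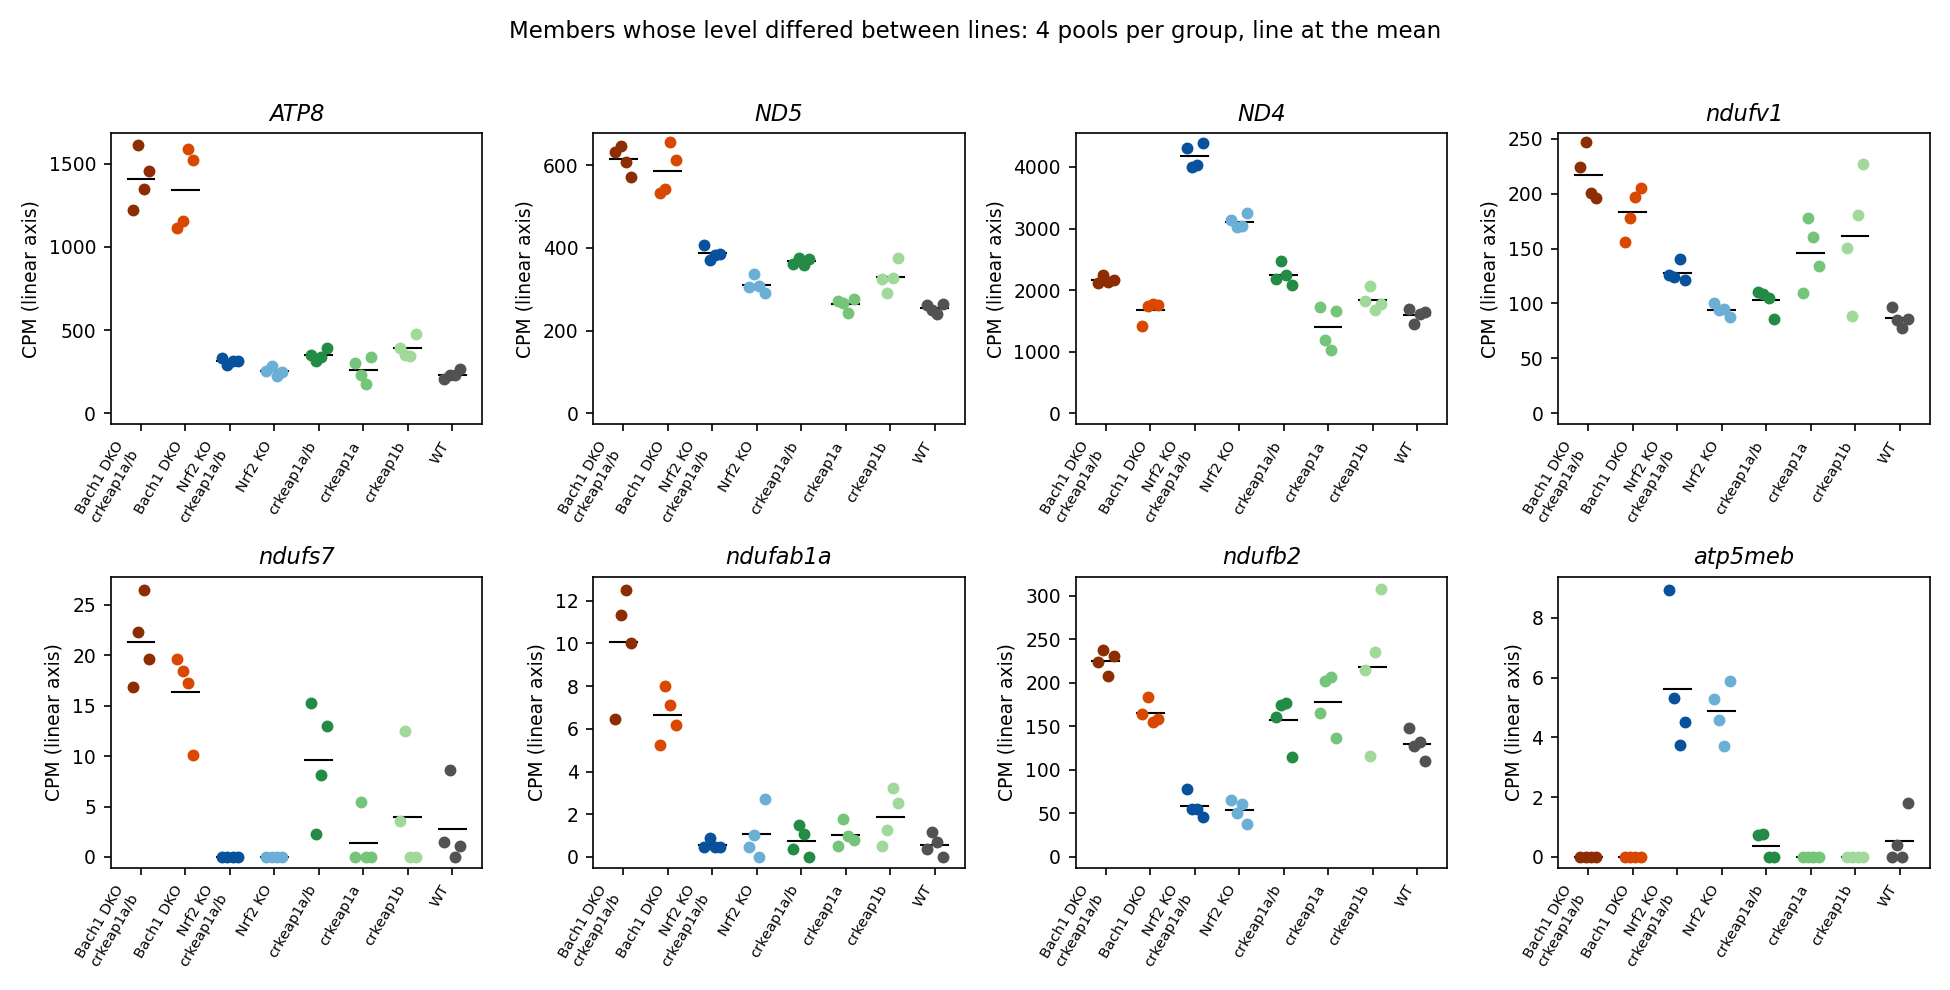
CPM in each of the 32 pools for ATP8, ND5, ND4, ndufv1, ndufs7, ndufab1a, ndufb2 and atp5meb, by group. ATP8, ND5, ndufv1, ndufab1a and ndufs7 are high in both Bach1 DKO groups. ND4 (higher still in the edited pools) and atp5meb are high and ndufb2 low in both Nrf2 KO groups. The gene ndufs7 is at 0 in both Nrf2 KO groups, and also in several single crispant pools and a WT pool.

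Edited larvae of the mutant lines were also set against crkeap1a/b larvae, which carry the same edits without the mutated line. In Bach1 DKO crkeap1a/b against crkeap1a/b larvae 20 members were called higher and 3 lower, where 30.0% of all rows were called, and without the 5 single crispant pools 31 higher and 12 lower, where 35.8% were. There were 14 nuclear subunits higher and 2 lower (median 0.03) and 5 mitochondrial genes higher (median 0.22). All 13 members called higher in unedited Bach1 DKO against WT larvae were called higher here as well, but only 2 of the 9 called lower, atp5f1b and ndufa11, were called lower here. ATP8 was higher by 2.01 ± 0.15 (adjusted p = 1.91e-12), ND5 by 0.74, ndufab1a by 3.89 ± 0.61 (adjusted p = 1.03e-05), ndufs7 by 1.40 ± 0.40 and ndufv1 by 1.08 ± 0.17 (adjusted p = 1.03e-05), while atp5f1b was lower (-0.66). The others called lower in the unedited line ran from -0.45 for cox4i2 to 0.03 for cox6b1. These comparisons share no pools with Bach1 DKO against WT. Further calls were cox7a2b (1.56), ndufs6 (1.20), atp5pd of the stator stalk (0.99), sdhaf4 (0.88) and ndufs8a (0.62) among the higher and ndufaf6 (-1.14) and ndufa11 (-0.52) among the lower.

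In Nrf2 KO crkeap1a/b against crkeap1a/b larvae 29 members were called higher and 4 lower, where 24.2% of all rows were called. Among nuclear subunits 20 were higher and 4 lower (median 0.25) and 8 of 13 mitochondrial genes were higher (median 0.39). By complex, 8 nuclear genes of complex IV were higher and 1 lower, 7 of complex V were higher, 4 of complex I were higher and 3 lower, and 1 of complex III was higher. Leaving out the 5 single crispant pools gave 47 higher and 6 lower, where 30.5% of rows were called. Several of the complex IV calls were isoform genes. The gene cox4i2, whose mammalian counterpart is an isoform linked to hypoxia, had 63.4, 63.4, 61.1 and 58.8 CPM in Nrf2 KO crkeap1a/b pools, against 34.9, 30.9, 28.5 and 27.04 CPM in crkeap1a/b pools (1.03 ± 0.20, adjusted p = 0.00016). The related genes cox4i1l (1.91) and cox4i1 (0.66), with cox6a2 (1.81) and cox7a2b (1.37), were also higher, of which cox4i1l and cox6a2 rest on few counts, and cox6b1 was lower (-0.95). ND4 was higher by 0.90 ± 0.13 (adjusted p = 2.04e-06), atp5meb by 3.79 ± 0.62 (adjusted p = 1.87e-05) and atp5pd by 1.23 (adjusted p = 0.000235), and ndufb2 was lower (-1.43 ± 0.21, adjusted p = 2.59e-06). Other called genes were ndufs6 (1.14), the assembly factor ndufaf1 (0.91), ndufa7 (0.81) and ndufv3 (-0.59). Muscle markers differed in the same direction, with 11 of 14 tested markers called higher and a median of 1.04, and their part was not tested.

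The isoform genes kept distinct levels over all groups. The ratio of cox4i2 to cox4i1 was 0.0518 to 0.0992 in Bach1 DKO crkeap1a/b pools and 0.0829 to 0.156 in Bach1 DKO pools, against 0.139 to 0.175 in WT pools. Both Bach1 DKO crkeap1a/b and crkeap1a/b pools lay below WT in this ratio without overlap. In Nrf2 KO crkeap1a/b pools it was 0.128 to 0.1499. For cox6a1, the widely expressed isoform in mammals, pools of the Bach1 DKO line held 163 to 231 CPM and WT pools 202 to 252 CPM. The gene ndufa4a, whose mammalian counterpart was once assigned to complex I and is counted here with complex IV, had 586 to 694 CPM in Nrf2 KO crkeap1a/b pools and 413 to 470 CPM in crkeap1a/b pools (0.57 ± 0.15, adjusted p = 0.0056). The gene cox8b, the heart and muscle isoform in rodents, was called only in the edited against the unedited Bach1 DKO larvae among the 9 pairwise comparisons.

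**Figure D5:**
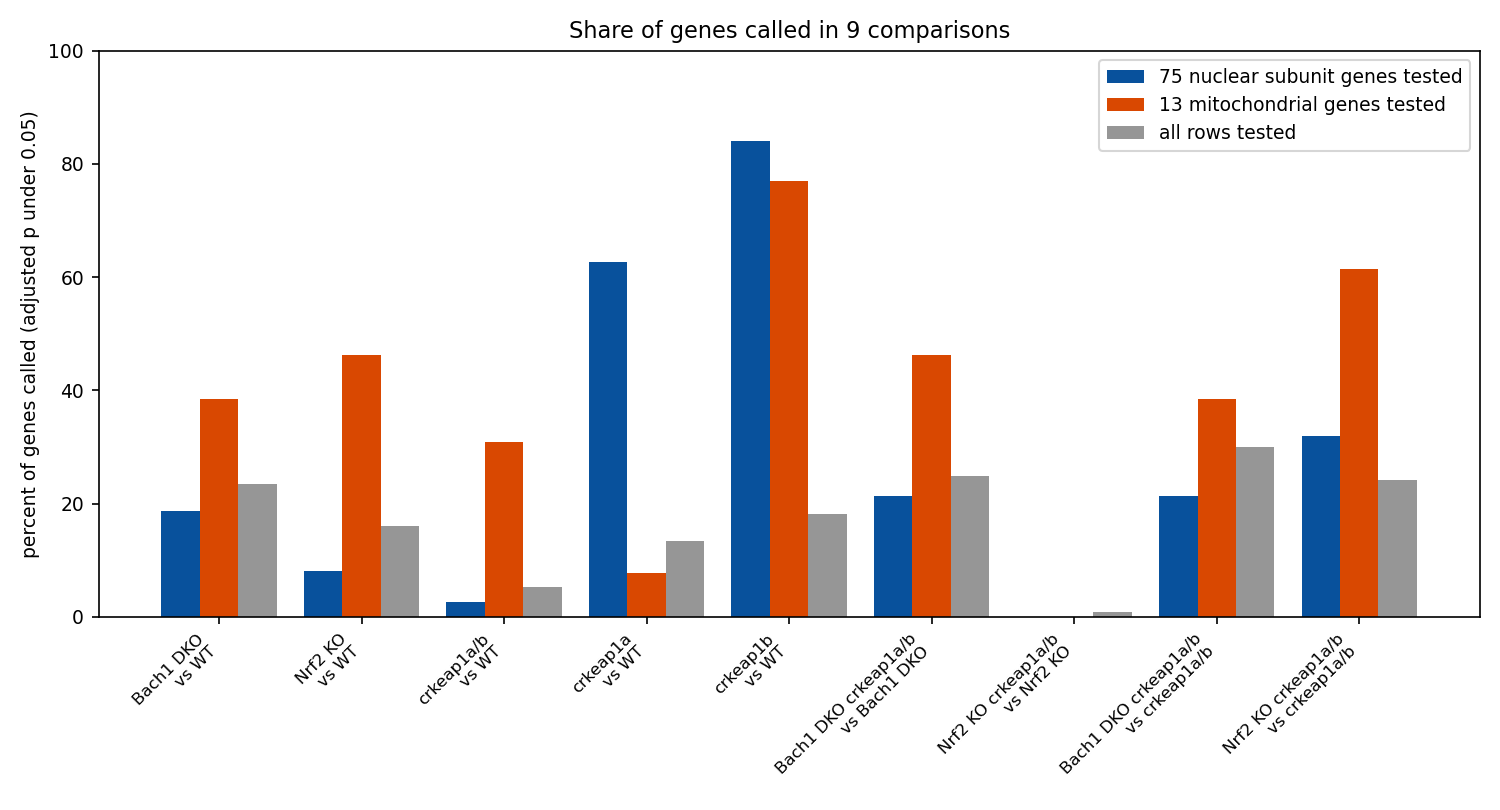
Percent of genes called (adjusted p under 0.05, either direction) in the 9 pairwise comparisons, for the 75 nuclear subunits, the 13 mitochondrial genes and all 14108 rows. Nuclear subunits exceed the share of all rows by the widest margin in crkeap1a and crkeap1b against WT, where 47 and 63 of 75 were called.

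Genes that work beside the chain were followed as lists. Of 32 tested assembly factors outside the naming rule, 12 were called higher and 0 lower in Bach1 DKO crkeap1a/b against Bach1 DKO larvae (median 0.45), where 14.3% of all rows were called higher. In crkeap1a/b against WT larvae 4 were higher and 0 lower (0.19), where 3.57% of all rows were called higher, and in Bach1 DKO crkeap1a/b against crkeap1a/b larvae 15 were higher and 0 lower (0.66), where 30.0% of all rows were called in either direction. In the Nrf2 KO line their median was 0.44 on editing. The leading gene was higd1a, whose yeast relatives bind complexes III and IV. It averaged 662 ± 33.2 CPM in Bach1 DKO crkeap1a/b larvae, against 61.5 ± 6.44 CPM in Bach1 DKO larvae (SD, n = 4 each, log2 fold change 3.43 ± 0.20 SE), and 173 ± 44.9 CPM in crkeap1a/b larvae, against 27.2 ± 6.18 CPM in WT larvae (SD, n = 4 each, 2.65 ± 0.22 SE). In the Nrf2 KO line it was not called on editing (0.35, adjusted p = 0.634). The complex IV assembly gene coa3a differed by 1.38 ± 0.17 and 1.36 ± 0.22 in the same comparisons, and cox14 by 1.17 and 0.72. Further calls in the Bach1 DKO line were cox16 (1.05), coa5 (1.04), tmem70 (1.02), atpaf1 (0.81), acad9 (0.74) and timmdc1 (0.71).

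Among 8 tested electron carriers and related genes, sqor, the sulfide:quinone oxidoreductase that feeds electrons to ubiquinone, was higher on editing by 3.76 ± 0.25 in the Bach1 DKO line, by 2.56 ± 0.34 in the Nrf2 KO line (adjusted p = 6.99e-06) and by 3.25 ± 0.27 in the WT background (adjusted p = 1.16e-11). The cytochrome c gene cycsb was higher by 0.57 ± 0.18 (adjusted p = 0.0157) in the Bach1 DKO line and by 0.79 ± 0.19 (adjusted p = 0.0232) in the Nrf2 KO line. These were the 2 genes of the list called on editing in each mutant line. The 61 mitochondrial ribosomal protein genes, which make the machinery that translates the mitochondrial genes, had 14 called higher and 0 lower in edited against unedited Bach1 DKO larvae (median 0.47), where 24.9% of all rows were called and 14.3% higher. They had 1 higher and 7 lower in Bach1 DKO against WT larvae (-0.15), where 23.4% of all rows were called, so the share called in either direction was not above that of all rows in these comparisons. The 9 ubiquinone synthesis genes had 3 higher and 1 lower (0.61), and the 21 genes of mitochondrial DNA maintenance and transcription 4 higher and 0 lower (0.18), in edited against unedited Bach1 DKO larvae.

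Other mitochondrial lists had negative medians in that comparison, where 24.9% of all rows were called and 14.3% were called higher. The 20 genes of the citrate cycle and pyruvate dehydrogenase had 2 called higher and 2 lower (median -0.11). The 13 carriers and channels had 0 higher and 4 lower (-0.23), and the 14 regulators of mitochondrial gene expression 1 higher and 2 lower (-0.14). Counts in lists this small, beside those shares, do not set the lists apart from each other. In crkeap1a against WT larvae, where 13.4% of all rows were called, 8 of the 20 citrate cycle genes and 5 of the 13 carriers and channels were called higher and 0 lower. In crkeap1b against WT larvae, where 18.2% were, 8 and 9 were called higher and 0 lower. Without the 5 pools that stood apart limma called 0 citrate cycle genes in either comparison, 1 carrier or channel in crkeap1a and 0 in crkeap1b, where 2.06% and 0.436% of rows were called.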

How the data were processed

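RNA was measured with QuantSeq 3′ libraries from 32 pools of whole larvae. Trimming by the authors used cutadapt 1.16, mapping to GRCz11 used STAR 2.7.5b, and single-end reads were assigned to genes by featureCounts 1.6.3 against a published zebrafish annotation (versions from the submitters' processing notes). The deposited values are raw counts. Strand and the treatment of reads that match several genes are not given in the sources used here, so counts of gene copies and overlapping genes are uncertain.

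Symbols came from RefSeq names (assembly GRCz12tu, used for names only): 15617 of 16039 IDs matched and 422 did not. The 786 rows without an ID, which hold 30.6% to 46.8% of counts, were left out of library sizes and tests. All columns matched a sample. Counts were fitted by limma-voom (limma 3.58.1, edgeR 4.0.16, R 4.3.3) with TMM scaling, filterByExpr (minimum count 10), 8 group means over 32 pools (24 residual and 12.9 prior degrees of freedom), two-sided contrasts and Benjamini-Hochberg adjustment over 14108 rows. Log2 CPM used a prior count of 2. The procedure was tested on simulated data. A chi-square statistic per degree of freedom of at least 1.74 separated every replicate pair. Replicates are pools, and the labels do not say whether they come from 1 experiment or more. The p-values measure the spread between pools.

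Alternatives were edgeR's quasi-likelihood test, DESeq2 1.42.0, size factors, no filter, sample quality weights, a replicate block, other library totals, the compared groups alone, a prior count of 0.5, summed CPM and leaving out each pool. After seeing the data, fits with all rows and without 5 single crispant pools were added. Named genes were, in each pairwise comparison, the 3 members called with the largest rise and the 3 with the largest fall, all mitochondrial genes, complex II and a set of isoform genes. Other named genes were chosen after their values were seen. The values of 1 member are not reported here. Members and lists were chosen with earlier results of these data known.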

Additional observations from a re-analysis of the deposited data

Results flagged for a closer look

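Pools far from the other 3 of their group were looked for in 248 groups of 4, and 11 had a gap to the nearest pool beyond Dixon's critical value, where chance gives about 1 in 20. In WT larvae these were pool 1 for COX1 (7613 CPM), pool 2 for ndufs7 (8.60 CPM) and pool 3 for cox5ab (108 CPM) and atp5pd (189 CPM). In Bach1 DKO crkeap1a/b larvae pool 3 was far from the others for atp5f1b (963 CPM) and atp5pd (189 CPM), and in Bach1 DKO larvae pool 1 for ND4 (1417 CPM) and cox7a2b (12.2 CPM). The others were pool 2 of Nrf2 KO crkeap1a/b for ndufaf1 (30.6 CPM), pool 1 of Nrf2 KO for COX1 (9178 CPM) and pool 3 of crkeap1a/b for ND1 (1193 CPM).

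The effect of editing keap1a differed with editing of keap1b, by the interaction term of the limma model, for 6 mitochondrial genes: ND4 (0.51), ND3 (-1.21), CYTB (-0.67), COX2 (-1.05), COX3 (-0.84) and ATP6 (-0.82) on the log2 scale. Of the nuclear subunits called for this interaction, the lowest 3 values were those of atp5pd (-2.31), ndufs6 (-2.22) and cox4i1l (-2.20). The value of ndufab1a was lower (-2.38) but was not called. Without the 5 single crispant pools that stood apart, 5 of all members were called for this interaction, against 79 with them. All of those 5 were nuclear subunits, and 0 of the 13 mitochondrial genes were called.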

How the results depend on the processing

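Depth limits the low genes: ndufs7 and atp5meb were at or under 3 counts in many pools. There a fitted fold change rests on the small constant that limma-voom adds to each count. The edgeR test, DESeq2 size factors and no filter on low counts left each count of called members within 1.5 times its value. Members called with the compared groups alone were 20 in crkeap1a, 25 in crkeap1b, 11 in crkeap1a/b, 40 in Bach1 DKO and 25 in Nrf2 KO against WT, 55 and 42 in edited against unedited Bach1 DKO and Nrf2 KO larvae, 43 in Bach1 DKO crkeap1a/b against crkeap1a/b larvae, and 5 and 1 for the Bach1 and Nrf2 interactions. Quality weights gave 11 (crkeap1a/b), 22 (Nrf2 KO), 39 and 24 (editing in the Bach1 DKO and Nrf2 KO lines), 37 (Bach1 DKO crkeap1a/b against crkeap1a/b) and 2 (Bach1 interaction). DESeq2 gave 5 (editing in the Nrf2 KO line) and 1 (Bach1 interaction). Without the 5 single crispant pools the counts were 10, 0, 22, 48 and 29 for crkeap1a, crkeap1b, crkeap1a/b, Bach1 DKO and Nrf2 KO against WT, 39 and 35 for editing in the Bach1 DKO and Nrf2 KO lines, 43 and 53 for the edited lines against crkeap1a/b, and 5, 6 and 1 for the keap1a by keap1b, Bach1 and Nrf2 interactions. That fit had fewer pools, and the cause of the other shifts was not tested.

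Without these pools the nuclear mean was 0.26 above WT in crkeap1a and 0.077 in crkeap1b, the mitochondrial mean 0.12 in crkeap1b, and in crkeap1b against WT the sign reversed for ND3 (-0.41), ND4L (-0.39), COX3 (-0.045), cox8a (-0.10) and atp5if1a (-0.12). Summed CPM, which follows the most abundant genes, gave nuclear differences of -0.13 for Bach1 DKO against WT, 0.23 and 0.28 for editing in the Bach1 DKO and Nrf2 KO lines and 0.038 for Bach1 DKO crkeap1a/b against crkeap1a/b, and mitochondrial ones of 0.22 for crkeap1a/b and 0.15 for Bach1 DKO against WT, and 0.27 and 0.55 for the Bach1 DKO and Nrf2 KO edited lines against crkeap1a/b.

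Leaving out each pool in turn gave 11 to 62 members in crkeap1a (11 without crkeap1a pool 2, 14 without pool 3, 30 without WT pool 4), 55 to 88 in crkeap1b, 3 to 6 in crkeap1a/b (3 without crkeap1a/b pool 3, WT pool 3 or WT pool 4), 16 to 20 in Bach1 DKO and 7 to 12 in Nrf2 KO against WT (7 without Nrf2 KO pool 4). The ranges were 14 to 22 and 0 to 0 for editing in the Bach1 DKO line (14 without Bach1 DKO crkeap1a/b pool 2, 15 without its pool 4 or Bach1 DKO pool 1) and the Nrf2 KO line, 16 to 22 and 29 to 30 for the edited lines against crkeap1a/b, 74 to 88 for the keap1a by keap1b interaction, 0 to 1 for Bach1 (1 without crkeap1a/b pool 2) and 0 to 0 for Nrf2. The nuclear differences ran 0.47 to 0.69, 0.65 to 1.06, 0.08 to 0.20, -0.08 to -0.01 and 0.02 to 0.08 for crkeap1a, crkeap1b, crkeap1a/b, Bach1 DKO and Nrf2 KO against WT, 0.30 to 0.35 and 0.31 to 0.38 for editing in the lines, and 0.08 to 0.20 and 0.20 to 0.32 against crkeap1a/b. The mitochondrial ones ran 0.18 to 0.26, 0.46 to 0.74, 0.28 to 0.36, 0.33 to 0.41, 0.33 to 0.39, 0.30 to 0.38, 0.29 to 0.34, 0.36 to 0.43 and 0.32 to 0.39 in the same order.

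In no comparison did every same-numbered pair correlate above 0.1, so the numbers were not taken as pairs. For editing in the Bach1 DKO line the pairs were all weakly positive (0.0753 to 0.156, mean 0.129), against a mean of -0.043 for other pairs. With a replicate block the counts were 45, 76, 5, 22 and 11 against WT, 22 and 0 for editing in the lines, 22 and 30 against crkeap1a/b, and 79, 0 and 0 for the interactions. Of the results of single genes, 1319 kept direction and side of the threshold under the alternatives other than leaving out a pool, 81 lost their call, 21 gained one and 5 reversed; on leaving out a pool 952 kept and 192 lost it. The most abundant row has no gene ID and was already outside the main library totals.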
